A study of Rattus norvegicus with 10 samples.

Results

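The effect of MASM within irradiated livers was taken from the arrays of 4 rats given MASM before total-body irradiation (MASM + TBI) and 3 rats given the irradiation without it (TBI). Members were the probes that the scanner software marked as well above background on every array of at least 1 of these groups, which held for 25036 of 40945 probes with a value on all arrays (61.1%). MASM is a synthetic derivative of matrine, an alkaloid from the root of Sophora flavescens. All rats were male Wistar rats, and liver RNA was taken 24 h after the irradiation. TBI rats received 6.5 Gy of gamma rays from a 60Co source at 2 Gy/min, the dose that the labels of the arrays give, where the paper states 6 Gy. MASM + TBI rats received the same irradiation after 30 mg/kg MASM by gavage on each of 3 days. The 3 control rats received neither, and its values are printed as the reference level. None of the 10 arrays was from a rat given MASM without irradiation, so every difference described below is one between irradiated livers.

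Liver is made up mainly of hepatocytes, which clear bile acids, sterols and foreign compounds through conjugating enzymes and membrane pumps, together with resident macrophages (Kupffer cells), natural killer cells and other lymphocytes. The hepatocyte clock, in which BMAL1 with CLOCK or NPAS2 drives Per and Cry genes that in turn repress it, sets the daily rhythm of many of these genes. Glutathione, made in a pathway whose rate is set by glutamate-cysteine ligase, scavenges the reactive oxygen that ionizing radiation produces.

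Signals are given on the log2 scale after quantile normalization over all 10 arrays, and a difference is always MASM + TBI minus TBI, with its standard error (SE). A probe was called at an adjusted p under 0.05 (limma, Benjamini-Hochberg over all 40945 probes) with a fold change of at least 1.5. Each rat had 1 array, and precision is limited by how few rats there were. The labels of the irradiated groups were checked with Cdkn1a, a p53 target that blocks the cell cycle. Its signal lay between 8.01 and 8.84 in control rats, between 13.47 and 14.06 in TBI rats and between 12.80 and 13.58 in MASM + TBI rats. The 3 TBI arrays shared slide 2, MASM + TBI rats 1, 2 and 4 shared slide 3, and MASM + TBI rat 3 lay on slide 1 with the controls, so slide and treatment cannot be told apart for TBI against MASM + TBI. The share of spots well above background was 64.1% to 70.1% on TBI arrays, 56.2% to 60.2% on MASM + TBI arrays and 57.2% to 59.9% on control arrays. Before normalization the mean log2 intensity of negative control spots was 1.09 to 1.32 on TBI arrays and 1.47 to 1.92 on MASM + TBI arrays, without overlap. On control arrays it was 1.69 to 1.77. The part of these differences in the results was not tested.

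Of the 25036 members, 400 were called, 238 higher and 162 lower in MASM + TBI rats. Over all probes tested 570 (1.39%) were called, of which 314 (0.767%) were higher and 256 (0.625%) lower. At an unadjusted p under 0.05 and the same fold change, 649 members were higher and 1240 lower, against 1290 (3.15%) and 1977 (4.83%) of all probes. No called member had overlapping groups, which is no separate result, since a call needs a difference that is large against the spread. The share of all probes without overlap was not counted. Among members 59.5% of calls were rises (exact binomial 95% interval 54.5% to 64.3%, which treats probes as independent), and scaling each array to its 75th percentile turned this share to 35.4% of 973 calls. Leaving out TBI rat 1, 2 or 3 gave 784, 213 or 735 calls, and leaving out MASM + TBI rat 1, 2 or 4 gave 158, 185 or 201. The rises made up 41.2% of calls with TBI rat 1 left out and 41% with TBI rat 3 left out.

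Rises and falls differed in the kind of transcript measured. A gene symbol was held by 48.6% of all members, by 33 of the 238 rising probes (13.9%) and by 68 of the 162 falling probes (42%). Among the rising probes 23.5% were listed under a probe name alone, a kind that made up 3.63% of members and 4.94% of the falling probes. Transcripts known from Ensembl made up 22.7% of the rises and 10.4% of members, and predicted RefSeq transcripts 18.5% and 5.60%. RefSeq mRNAs, by contrast, were 16.4% of the rises, 43.2% of the falls and 51.5% of members. Probes with no symbol are not named here.

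The balance of rises and falls depended on level and on the threshold. Among the 21818 members well above background on all 7 irradiated arrays, 217 rose and 66 fell, and among the 5455 brightest of them 26 rose and 2 fell. At the unadjusted threshold the balance was the other way, with 560 higher and 693 lower among all of them and 61 higher and 104 lower among the brightest, against 248 higher and 230 lower among the 5455 dimmest. Another 3150 members were well above background on all TBI arrays but not on all MASM + TBI arrays, and 68 the other way round. These were bound to lean one way, since they passed through the group in which they were bright, and 96 of 99 calls in the set lost in MASM + TBI rats were falls and all 18 calls in the other set were rises.

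**Figure D1:**
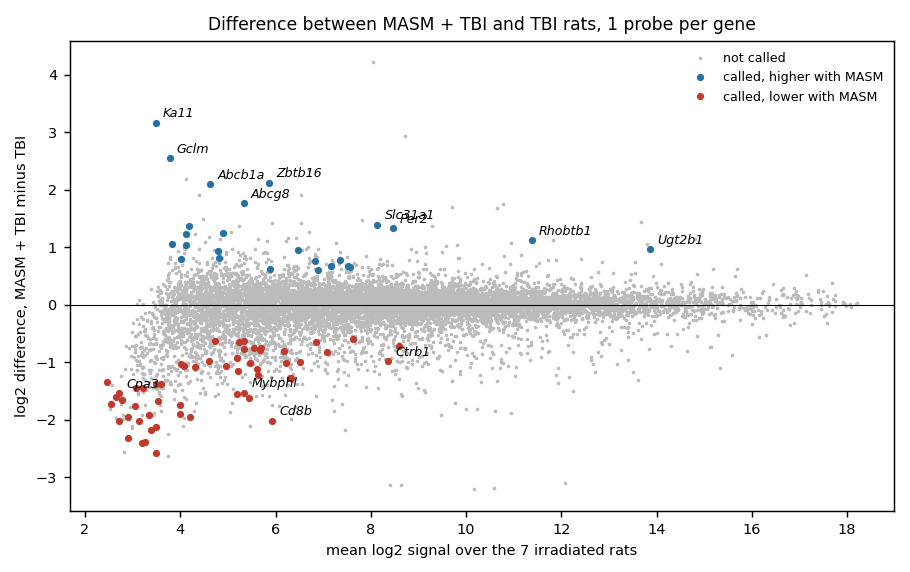
Log2 difference between MASM + TBI and TBI rats (vertical axis) against the mean log2 signal over the 7 irradiated rats (horizontal axis), with 1 point for the brightest probe of each named gene among the members. Called rises (blue) include the bright gene Ugt2b1 at a difference of 0.97, and called falls (red) include Cd8b at -2.01.

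The 3 promoters that follow belong to rising genes of sterol export, the clock and glutathione synthesis, and were read from RefSeq on the GRCr8 assembly as 300 bases, most of them before the gene's start, in the direction of the gene. The letters TGACNNNGC (antioxidant response element), CACGTG (E-box), ACANNNTGT (core of the glucocorticoid response element) and TAGGTCA (ROR element) were searched on both strands, and matches are in capitals, with overlapping matches merged.
Abcg8, chr6:15717681-15717980, minus strand: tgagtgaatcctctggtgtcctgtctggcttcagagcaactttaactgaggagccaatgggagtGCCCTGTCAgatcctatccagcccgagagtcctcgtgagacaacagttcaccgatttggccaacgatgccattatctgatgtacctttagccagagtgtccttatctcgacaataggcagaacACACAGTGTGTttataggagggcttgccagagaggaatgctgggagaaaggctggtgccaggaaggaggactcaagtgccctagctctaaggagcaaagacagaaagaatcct
Per2, chr9:99496944-99497243, minus strand: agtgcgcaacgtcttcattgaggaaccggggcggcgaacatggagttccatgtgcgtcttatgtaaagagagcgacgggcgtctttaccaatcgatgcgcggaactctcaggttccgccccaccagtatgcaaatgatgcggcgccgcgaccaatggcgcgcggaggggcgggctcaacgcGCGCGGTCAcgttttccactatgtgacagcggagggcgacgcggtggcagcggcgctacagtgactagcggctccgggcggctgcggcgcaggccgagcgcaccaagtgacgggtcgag
Gclm, chr2:213031885-213032184, plus strand: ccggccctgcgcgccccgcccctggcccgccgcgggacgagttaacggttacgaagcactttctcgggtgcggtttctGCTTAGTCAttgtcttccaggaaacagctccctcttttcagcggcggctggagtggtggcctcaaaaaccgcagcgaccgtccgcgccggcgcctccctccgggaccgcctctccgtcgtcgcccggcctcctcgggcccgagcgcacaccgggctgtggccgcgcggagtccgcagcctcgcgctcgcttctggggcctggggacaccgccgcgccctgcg
The antioxidant response element letters began 172 bases upstream of the start of Gclm, 69 upstream of Per2 and 186 upstream of Abcg8, and Abcg8 also held overlapping matches of the glucocorticoid core, which began 63 and 61 bases upstream. Among 33469 promoters of this length, 12.1% held the antioxidant letters, 6.86% the glucocorticoid core, 6.42% the E-box and 2.63% the ROR element. Of the 34 called genes that the rule for named genes gave, 28 had a promoter in the table, of which 7 held the antioxidant letters, 2 the glucocorticoid core, 1 the E-box and 0 the ROR element. The antioxidant letters were held by the rising genes Abcg8, Per2, Rhobtb1 and Gclm and by the falling genes Slc6a11, Olfml2b and Taok2. The promoters of the rising genes Slc31a1, Ugt2b1 and Abcb1a held no match. A match of letters is a description and not a binding site.

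Genes of transport, conjugation and glutathione synthesis are given together here, some of them because they belong to lists chosen for this purpose. Slc31a1, the high-affinity copper importer, had signals of 7.52, 7.45 and 7.04 in TBI rats and of 8.79, 8.83, 8.46 and 8.85 in MASM + TBI rats, with 7.89 to 8.22 in control rats. All 4 MASM + TBI rats lay above every TBI and every control rat, and the difference was 1.39 (SE 0.15, adjusted p = 0.00614 in limma), a 2.62-fold rise. Ugt2b1, which attaches glucuronic acid to steroids and drugs, was bright, with 13.39, 13.32 and 13.19 in TBI rats and 14.19, 14.52, 14.20 and 14.16 in MASM + TBI rats. Its control level of 13.12 to 13.38 was that of the TBI rats, so the rise of 0.97 (SE 0.11, adjusted p = 0.00818) stood above both other groups.

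Of 14 ABC transporters, the pumps that move sterols, bile salts and drugs out of cells, 2 rose (Abcb1a and Abcg8) and 0 fell, against 35 (0.261%) and 81 (0.603%) of the 13426 genes with a symbol. Abcg8, which pairs with Abcg5 to secrete sterols into bile, had 4.37, 4.36 and 4.24 in TBI rats and 6.47, 5.37, 6.03 and 6.48 in MASM + TBI rats, a rise of 1.77 (SE 0.26, adjusted p = 0.0176). Its control values of 5.31 to 5.68 overlapped the MASM + TBI rats. Abcg5, its partner, had 10.19, 9.98 and 10.75 in TBI rats and 11.68, 10.06, 11.29 and 11.61 in MASM + TBI rats, where rat 2 lay among the TBI rats (difference 0.85, adjusted p = 0.391). Abcb1a, a P-glycoprotein that expels drugs, had 3.11, 3.42 and 3.78 in TBI rats, with 2 of 3 arrays well above background, and 5.47, 5.42, 5.71 and 5.52 in MASM + TBI rats. Its rise of 2.09 (SE 0.18, adjusted p = 0.00326) passed the control level of 4.32 to 4.86. The related Abcb1b had 7.24, 7.12 and 7.92 in TBI rats and 7.62, 9.18, 7.67 and 8.6 in MASM + TBI rats and was not called (adjusted p = 0.341), with overlapping groups. Abcg1, which exports cholesterol from macrophages, had a difference of -1.0 (adjusted p = 0.188), and the median over the 14 genes was 0.21, against 0.01 over all genes. Abcg8 lost its call when TBI rat 2 (adjusted p = 0.0524) or MASM + TBI rat 1 (adjusted p = 0.0523) was left out, which gave 1 called ABC transporter in each case, and 3 rose when MASM + TBI rat 4 was left out. With normexp background correction 0 of the 14 were called, since Abcg8 lost the adjusted p (0.0755) and Abcb1a the fold change (0.41 on the log2 scale), and with only the irradiated groups in the model 1 was. Without TBI rat 1 the median was 0.03, with 2 rises and 1 fall.

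Gclm, the modifier subunit of glutamate-cysteine ligase, had 2.35, 1.71 and 2.91 in TBI rats and 4.98, 4.83, 4.42 and 5.24 in MASM + TBI rats. Only 1 of 3 TBI arrays was well above background, so the size of the difference of 2.54 (SE 0.29, adjusted p = 0.00682) is limited by the background in TBI rats. The control rats, at 4.39 to 4.76, lay near the MASM + TBI rats. Gclc, the catalytic subunit of the same enzyme, had 6.88, 6.52 and 7.68 in TBI rats and 7.85, 7.34, 7.68 and 7.72 in MASM + TBI rats, with overlap (difference 0.62, adjusted p = 0.265). Of 23 measured targets of Nrf2, the factor that binds the antioxidant element, Gclm was the 1 called gene, against 0.261% of all genes called higher and 0.603% lower, and the median difference was 0.13. At the unadjusted threshold Gclm, Gclc and Abcc4 (0.75, adjusted p = 0.119) were higher, and Hmox1 (-0.78, adjusted p = 0.250) was 1 of 2 lower genes, against 1.73% and 6.09% of all genes. With normexp the difference of Gclm was 0.35, below the fold change for a call, and 0 targets were called, while median scaling gave 4 higher and 1 lower. Nqo1 and Txnrd1, common reporters of Nrf2, had differences of 0.32 and -0.00.

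**Figure D2:**
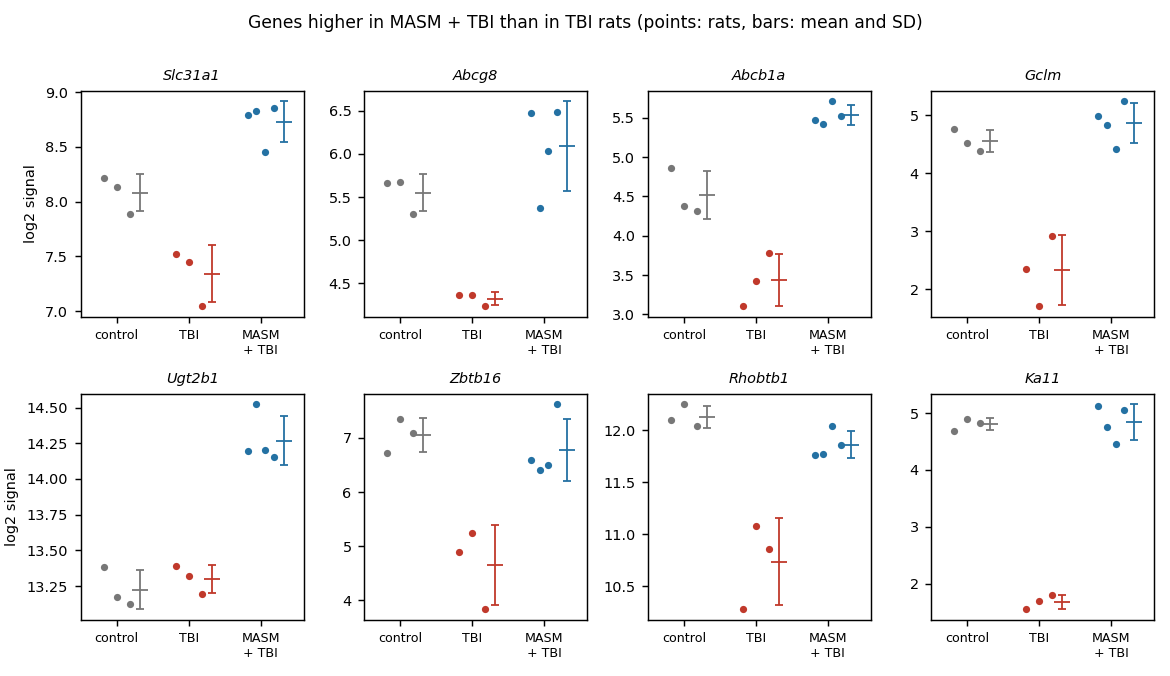
Log2 signal (vertical axes, each panel with its own range) of 8 genes that were higher in MASM + TBI rats, with 1 point per rat, and the mean and SD of each group as a bar. In all 8 panels the 4 MASM + TBI rats lie above the 3 TBI rats, and no called member had overlapping groups. For Slc31a1, Abcb1a and Ugt2b1 they also lie above the 3 control rats.

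Among genes of the circadian clock, Per2, a repressor of BMAL1, rose. It had 7.55, 7.67 and 7.88 in TBI rats and 9.09, 8.86, 9.43 and 8.74 in MASM + TBI rats, with 8.37 to 8.57 in control rats, so that no group overlapped another. The difference was 1.33 (SE 0.17, adjusted p = 0.00955), a 2.52-fold rise, and the call was kept without any single rat. No other of the 10 core clock genes was called. Npas2, a partner of BMAL1, had 7.69, 7.05 and 7.51 in TBI rats and 5.69, 6.12, 4.82 and 5.95 in MASM + TBI rats, without overlap (difference -1.77, SE 0.37, adjusted p = 0.0634). A second and dimmer Npas2 probe had a difference of -0.04 (adjusted p = 0.968), so the probes of this gene disagree. The brighter Npas2 probe was called with 75th percentile scaling (adjusted p = 0.0385), median scaling (0.0155 as adjusted p), normexp (0.0476 as adjusted p) and the slide as a random block (0.0234 as adjusted p), and when only members (0.0370 as adjusted p) or only probes above background on all 7 arrays (0.0358 as adjusted p) were tested. It was called with none of the rats left out in turn (adjusted p = 0.0543 to 0.141 in limma). Nor was it called with only the irradiated groups in the model, with the replicate number as a block or by the methods' t-test. Bmal1 had 8.34, 7.49 and 8.58 in TBI rats and 6.70, 6.82, 5.18 and 7.23 in MASM + TBI rats (difference -1.65, adjusted p = 0.140), and its control rats lay at 4.88 to 5.50.

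Genes that the clock drives had a median difference of 0.51 over 9 measured genes, and 3 of them were higher at the unadjusted threshold, a share of 33.3% against 1.73% (232) of all genes. Usp2, a ubiquitin protease with a strong daily rhythm, had 7.89, 8.97 and 8.85 in TBI rats and 9.56, 9.40, 10.06 and 9.25 in MASM + TBI rats (difference 0.99, adjusted p = 0.137). Dbp, a transcription factor that BMAL1 activates, had 11.16, 11.89 and 11.25 against 12.14, 12.02, 12.65 and 12.03 (difference 0.78, adjusted p = 0.123). Wee1, a kinase that delays mitosis, had 6.94, 7.43 and 7.49 against 7.99, 7.81, 8.52 and 7.63 (difference 0.70, adjusted p = 0.171). None of these groups overlapped, and all control values of Usp2 and Dbp lay above all TBI values. The list's median was 0.27 without TBI rat 1 and 0.64 without TBI rat 2.

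MASM + TBI rat 3, the rat on the slide of the controls, had the highest Per2, Per3, Usp2, Dbp and Wee1 and the lowest Npas2 and Bmal1 of its group. Without it 2 of the 9 clock output genes passed the unadjusted threshold in place of 3, with a median of 0.31. The part of the slide in these values was not tested.

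**Figure D3:**
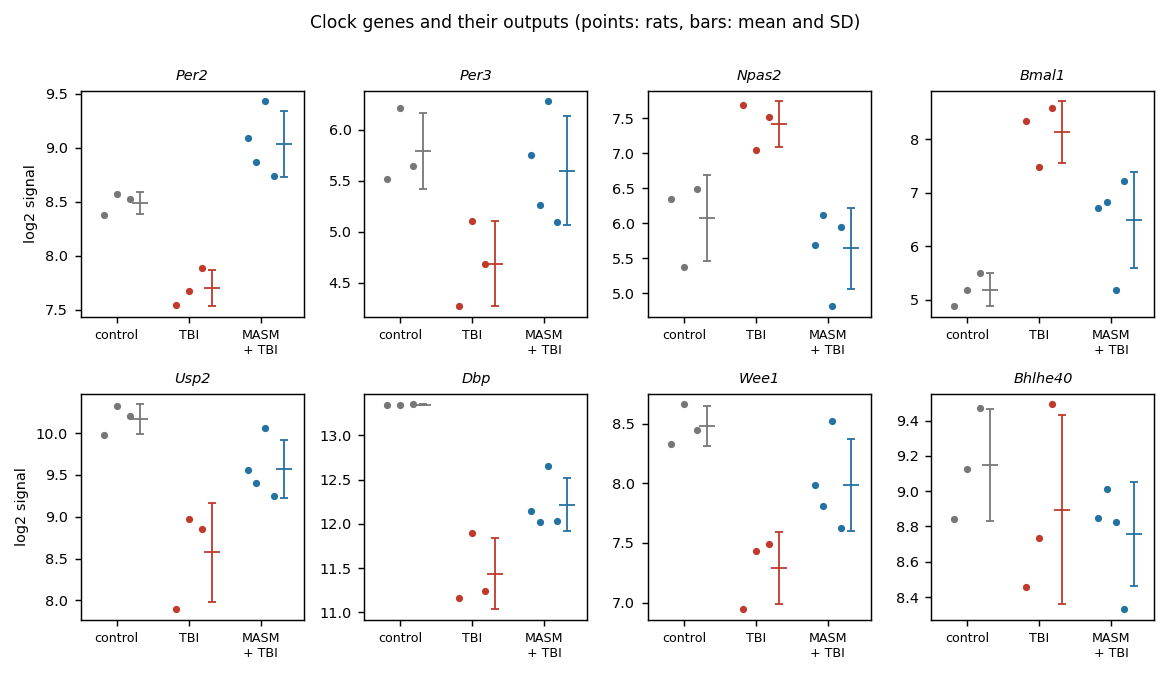
Log2 signal of 8 clock genes and clock outputs in each rat (points), with the mean and SD of each group. Per2 is the called gene, at 7.55 to 7.88 in TBI rats and 8.74 to 9.43 in MASM + TBI rats, while Npas2 and Bmal1 lie lower in MASM + TBI than in TBI rats without overlap.

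Other rises were spread over unrelated functions. Zbtb16, a transcription factor induced by glucocorticoids, had 4.89, 5.25 and 3.83 in TBI rats and 6.60, 6.40, 6.49 and 7.62 in MASM + TBI rats, a rise of 2.12 (SE 0.40, adjusted p = 0.0435) to near the control level of 6.72 to 7.35. A second Zbtb16 probe differed by 1.29 (adjusted p = 0.0710), also without overlap. Of 13 glucocorticoid-responsive genes Zbtb16 was the 1 called, Fkbp5 was also higher (0.59, adjusted p = 0.136) and Myoc (-2.11, adjusted p = 0.255) and Sgk1 (-0.83, adjusted p = 0.161) were lower at the unadjusted threshold, and the median was -0.03. Over all genes 0.261% were called higher, and 1.73% were higher and 6.09% lower at the unadjusted threshold. Rhobtb1, an atypical GTPase, had 10.28, 11.08 and 10.86 in TBI rats and 11.77, 11.77, 12.04 and 11.86 in MASM + TBI rats (difference 1.12, SE 0.18, adjusted p = 0.0239), and its control rats lay at 12.04 to 12.25.

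Rundc3b differed by 1.24 (adjusted p = 0.00791), Dhx16, an RNA helicase of the spliceosome, by 0.95 (adjusted p = 0.00714), and Papolb, a poly(A) polymerase, by 0.81 (adjusted p = 0.00487). Papolb had 4.26, 4.47 and 4.33 in TBI rats and 5.09, 5.20, 5.18 and 5.17 in MASM + TBI rats. Agtr1b, an angiotensin II receptor, differed by 0.94 (adjusted p = 0.0181), Tmf1, a Golgi protein, by 1.05 (adjusted p = 0.0226) and Lpar2, a receptor for lysophosphatidic acid, by 0.78 (adjusted p = 0.0482). For these 6 genes the groups did not overlap, which the rule that named them required. Ka11, a type I keratin, was not well above background on any TBI array (1.55, 1.70 and 1.79) and had 5.12, 4.75, 4.45 and 5.06 in MASM + TBI rats, which makes it at least 3.99-fold higher (adjusted p = 2.77e-04), with a control level of 4.68 to 4.89. Such a bound sets the mean of the bright group against, for each dim array, the lowest signal among its probes well above background.

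Among the rises, Slc31a1, Ugt2b1, Abcb1a, Gclm, Per2, Rundc3b, Dhx16, Papolb and Ka11 kept their call with any 1 rat left out. Zbtb16 lost it with each of the 10 rats left out (adjusted p = 0.0529 to 0.101). Rhobtb1 lost it without any 1 of the MASM + TBI rats (adjusted p = 0.0509 to 0.0675), and Tmf1 without TBI rat 2 or MASM + TBI rat 1, 2 or 4 (adjusted p = 0.0621 to 0.0736). Agtr1b lost it without MASM + TBI rat 1 (adjusted p = 0.0619), and Lpar2 with each of control rat 2, TBI rats 2 and 3 and all MASM + TBI rats left out (adjusted p = 0.0758 to 0.124). The 6 rises named as lost (Zbtb16, Rhobtb1, Tmf1, Agtr1b, Lpar2 and Abcg8) were also lost with only the irradiated groups in the model, and Papolb (adjusted p = 0.0528), Zbtb16 (adjusted p = 0.0702), Abcg8 (adjusted p = 0.0755) and Lpar2 (adjusted p = 0.0773) with normexp background correction. With normexp the differences of Abcb1a (0.41), Gclm (0.35), Rundc3b (0.35), Dhx16 (0.42), Agtr1b (0.19), Tmf1 (0.21) and Ka11 (0.34) were below a 1.5-fold change, so these calls were lost as well, at adjusted p = 0.00969 to 0.0455.

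Among called genes whose brightest probe was well above background on all 7 irradiated arrays, the largest fall was that of Cd8b. This gene encodes the beta chain of the CD8 receptor of cytotoxic T cells. It had 6.93, 7.51 and 6.78 in TBI rats and 4.74, 4.89, 5.47 and 5.15 in MASM + TBI rats, and its control values of 5.98 to 6.84 overlapped the TBI rats and lay above every MASM + TBI rat. The difference was -2.01 (SE 0.28, adjusted p = 0.0135), a 4.04-fold fall. Cd8a, the alpha chain, had 3.63, 5.32 and 5.57 in TBI rats and 4.36, 3.62, 4.30 and 3.60 in MASM + TBI rats, with overlap (difference -0.87, adjusted p = 0.393). Of 10 listed T cell markers, among them Cd8a but not Cd8b, 0 were called (limma), with a median difference of 0.03. Only 4 of the 10 were members, so this median rests mostly on dim probes. At the unadjusted threshold Cd4 (-1.03, adjusted p = 0.181) was lower and Cd2 (2.09, adjusted p = 0.0736) higher, although Cd2 was well above background on no TBI array and on 2 of 4 MASM + TBI arrays. The mean log2 signal over the T cell list was 3.18 to 3.81 in TBI rats and 3.36 to 4.13 in MASM + TBI rats, below the control range of 4.30 to 4.75.

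Other falling genes named by the size of their fall follow, with a clause on what each is known from. How many falling genes or members are known from tissues other than liver was not counted. Mybphl, a myosin-binding protein, had 6.35, 6.14 and 6.15 in TBI rats and 4.28, 4.92, 4.93 and 4.61 in MASM + TBI rats (difference -1.53, SE 0.17, adjusted p = 0.00614), with controls at 4.42 to 4.70. Ctrb1, a chymotrypsinogen of the pancreas, had 9.0, 8.98 and 8.79 in TBI rats and 7.95, 7.93, 8.12 and 7.78 in MASM + TBI rats (difference -0.98, SE 0.16, adjusted p = 0.0245), with controls at 7.54 to 8.20. In both genes the control and MASM + TBI rats overlapped and the TBI rats stood above.

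The same arrangement held for Cryaa, a crystallin of the lens (-1.15, adjusted p = 0.0123), for Htr3a, a serotonin-gated channel (-1.01, adjusted p = 0.0180), for Slc6a11, a GABA transporter (-1.11, adjusted p = 0.0198), and for the neuropeptide gene Adcyap1 (-1.23, adjusted p = 0.0437). Tcte1 (-1.27, adjusted p = 0.0352) and Spaca9 (-1.01, adjusted p = 0.0111), both known from sperm, and the olfactory receptors Or51a25 (-1.28, adjusted p = 0.0379) and Or6b13 (-0.99, adjusted p = 0.00955) fell as well. Olfml2b had 4.74, 5.30 and 5.42 in TBI rats and 4.17, 4.01, 4.41 and 4.12 in MASM + TBI rats (difference -0.98, adjusted p = 0.0338). None of these genes had overlapping irradiated groups, which the rule that named them required. These falls go with the larger share of spots well above background on TBI arrays given above, and its part in them was not tested.

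Cd8b, Mybphl, Cryaa, Spaca9 and Or6b13 kept their call with any 1 rat left out. Slc6a11 lost it when TBI rat 2 (adjusted p = 0.0634) or MASM + TBI rat 1 (adjusted p = 0.0648) was left out, and Htr3a when TBI rat 2 (adjusted p = 0.0524) or MASM + TBI rat 2 (adjusted p = 0.0577) was. Ctrb1 lost it without TBI rat 2 or MASM + TBI rat 1, 2 or 4 (adjusted p = 0.0701 to 0.0775). Or51a25 (adjusted p = 0.0557 to 0.107), Tcte1 (0.0565 to 0.103 as adjusted p), Adcyap1 (0.0544 to 0.117 as adjusted p) and Olfml2b (0.0526 to 0.103 as adjusted p) each lost it with 8 or more of the 10 rats left out, including every control rat for Tcte1, Adcyap1 and Olfml2b and control rats 1 and 3 for Or51a25. With only the irradiated groups in the model the calls were lost for Or51a25 (adjusted p = 0.0800), Tcte1 (adjusted p = 0.10), Adcyap1 (adjusted p = 0.119), Cryaa (adjusted p = 0.0529), Slc6a11 (adjusted p = 0.0558), Htr3a (adjusted p = 0.0648) and Olfml2b (adjusted p = 0.0961). With normexp background correction Adcyap1 lost its call (adjusted p = 0.0589), and Mybphl, Or51a25, Cryaa, Slc6a11, Htr3a, Spaca9, Or6b13 and Olfml2b lost theirs because the differences, -0.54 to -0.26, were below a 1.5-fold change (adjusted p = 0.00953 to 0.0304).

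**Figure D4:**
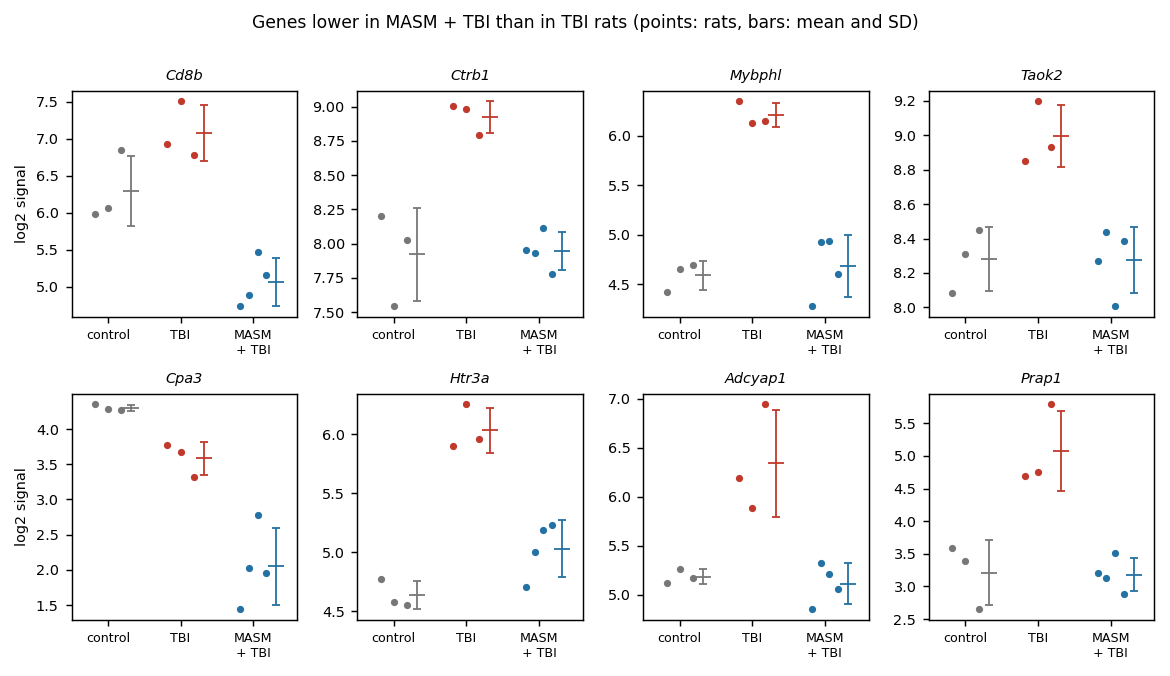
Log2 signal of 8 genes that were lower in MASM + TBI rats, with 1 point per rat and the mean and SD of each group. Apart from Cd8b and Cpa3, the control rats lie below every TBI rat. In all 8 panels the 4 MASM + TBI rats lie below the 3 TBI rats, and no called member had overlapping groups.

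Genes lost to the background in MASM + TBI rats could at most be given a bound, and of 25 such called genes with a symbol 20 had a bound above 1. Prap1, a proline-rich acidic protein, had 4.69, 4.75 and 5.79 in TBI rats and 2.89 to 3.51 in MASM + TBI rats and was at least 2.36-fold lower (adjusted p = 0.0304). Cldn16, a tight junction protein of the kidney, was at least 2.18-fold lower (adjusted p = 0.0226), with 4.99, 4.89 and 5.0 in TBI rats and 1.98, 2.03, 3.64 and 1.91 in MASM + TBI rats. The olfactory receptors Or51f23c (at least 2.22-fold, adjusted p = 0.0486), Or7g18 (at least 1.95-fold, adjusted p = 0.0361) and Or51a42 (at least 1.80-fold, adjusted p = 0.00867) were lower too. Or51a42 kept its call with any 1 rat left out. The calls were lost for Cldn16 without TBI rat 2 or MASM + TBI rat 1, 2 or 4 (adjusted p = 0.0641 to 0.0717) and for Prap1 without control rat 2, TBI rat 2 or MASM + TBI rat 1, 2 or 4 (adjusted p = 0.0538 to 0.0844). Or51f23c (adjusted p = 0.0651 to 0.139) lost its call with any rat but TBI rat 3 left out, and Or7g18 (adjusted p = 0.0603 to 0.108) with any rat but TBI rat 3 and MASM + TBI rat 3. With only the irradiated groups in the model Prap1 (adjusted p = 0.0629), Cldn16 (adjusted p = 0.0726), Or51f23c (adjusted p = 0.113) and Or7g18 (adjusted p = 0.104) lost their calls, and with normexp Prap1 (adjusted p = 0.120), Or51f23c (adjusted p = 0.106) and Or7g18 (adjusted p = 0.0602) did. The differences of Cldn16 (-0.32) and Or51a42 (-0.26) with normexp were below a 1.5-fold change.

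Olfactory receptors were the longest of the lists, with 1037 genes measured, of which 181 were members. Of the 1037 genes 3 were called higher and 20 lower, and 9 (0.868%) were higher and 122 (11.8%) lower at the unadjusted threshold, against 1.73% and 6.09% (818) of all genes. The median difference was 0.00. With each array scaled to its 75th percentile 263 were called higher and 51 lower, and with median scaling 355 and 50, so the direction of this family depends on the scaling.

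The lists of natural killer cell, Kupffer cell and inflammatory genes had the lowest medians, and 6 of 7, 7 of 7 and 8 of 10 of their measured genes were members. Those of T cells and mast cells had medians of 0.03 and 0.20, but only 4 of 10 and 3 of 7 of their measured genes were members. These 2 medians thus rest mostly on dim probes. In whole liver, fewer cells of a type and less RNA per cell cannot be told apart. All 7 measured Kupffer cell markers were lower in MASM + TBI rats, with a median difference of -0.86 and 0 called (limma). Over all 13426 genes 6485 were lower. At the unadjusted threshold 4 were lower (57.1%), against 6.09% of all genes. Csf1r, the receptor for the macrophage growth factor CSF1, had 8.56, 9.97 and 9.63 in TBI rats and 8.59, 8.36, 8.08 and 8.09 in MASM + TBI rats, where TBI rat 1 lay at the MASM + TBI level (difference -1.10, adjusted p = 0.156). Adgre1, the F4/80 antigen, differed by -1.06 (adjusted p = 0.223), the lysosomal protein Cd68 by -0.89 (adjusted p = 0.137) and the scavenger receptor Marco by -0.86 (adjusted p = 0.231), while the Kupffer cell markers Clec4f and Vsig4 differed by -0.53 and -0.15. Cd68 was the gene of these in which the groups did not overlap. The mean log2 signal over the list was 10.54 to 11.42 in TBI rats, 10.16 to 10.62 in MASM + TBI rats and 10.19 to 10.88 in control rats, so MASM + TBI rats overlapped both other groups. The count of markers lower at the unadjusted threshold was 5 without TBI rat 1, with 3 called after adjustment, and 2 without TBI rat 2, TBI rat 3, MASM + TBI rat 3 or MASM + TBI rat 4. The median of the list was -1.15 without TBI rat 1 and -0.51 without TBI rat 2, and 6 of the 7 markers were lower without TBI rat 1, TBI rat 2 or MASM + TBI rat 4.

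Natural killer cell markers were lower in 7 of 7 genes, against 6485 of 13426 genes over the array, with a median of -0.93 and 0 called, and 2 (28.6%) were lower at the unadjusted threshold, against 6.09% of all genes. Nkg7, a protein of cytotoxic granules, had 8.31, 9.83 and 9.43 in TBI rats and 8.37, 8.15, 7.94 and 7.44 in MASM + TBI rats, with 8.81 to 10.09 in control rats (difference -1.21, adjusted p = 0.202). Gzmb, the granule protease granzyme B, had 5.45, 7.69 and 7.43 in TBI rats and 6.04, 5.64, 5.67 and 4.99 in MASM + TBI rats (difference -1.27, adjusted p = 0.309). In both genes TBI rat 1 fell within the MASM + TBI rats, and without it 6 of 7 markers passed the unadjusted threshold, with a median of -1.43. Without TBI rat 2 the median was -0.59 and 6 of 7 markers were lower. Only 1 marker passed without TBI rat 2, TBI rat 3 or MASM + TBI rat 4, while 4 passed without MASM + TBI rat 1 and 3 without control rat 1. The mean log2 signal over the list was 6.81 to 8.36 in TBI rats, 6.21 to 7.19 in MASM + TBI rats and 7.32 to 8.44 in control rats.

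Of 10 genes of inflammatory cytokines and NF-kappaB targets 0 were called and 5 (50%) were lower at the unadjusted threshold, against 6.09% of all genes, with a median of -0.84. Il1b, the cytokine interleukin 1 beta, had 9.76, 12.12 and 11.92 in TBI rats and 9.88, 9.53, 9.96 and 8.43 in MASM + TBI rats, against 9.28 to 9.86 in control rats (difference -1.82, SE 0.60, adjusted p = 0.177). TBI rats 2 and 3 stood above all other rats, and TBI rat 1 lay with the controls. Nfkbia, the inhibitor that NF-kappaB itself induces, differed by -0.97 (adjusted p = 0.162), Birc3, an inhibitor of apoptosis, by -0.98 (adjusted p = 0.154), Tnf by -0.85 (adjusted p = 0.20) and the monocyte chemokine Ccl2 by -0.84 (adjusted p = 0.198). Birc3 alone of these 5 genes had irradiated groups without overlap, at 7.47, 8.64 and 8.59 against 7.34, 7.33, 7.35 and 6.99. Tnf was well above background on 2 TBI arrays and on no MASM + TBI array. Without TBI rat 1, 2 of the 10 genes were called and 6 passed the unadjusted threshold, without MASM + TBI rat 1 there was 1 call, and without TBI rat 2 or TBI rat 3 only 2 genes passed the unadjusted threshold.

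Cpa3, a carboxypeptidase of mast cells, fell and was well above background on all TBI arrays (3.77, 3.67 and 3.32) and on no MASM + TBI array (1.44, 2.03, 2.77 and 1.96). No bound on its fold could be set, since the background of the MASM + TBI arrays lay above its TBI level, and its call (adjusted p = 0.0350) was lost when any rat but TBI rat 3 and MASM + TBI rat 3 was left out (0.0605 to 0.103 as adjusted p), as well as with only the irradiated groups in the model (adjusted p = 0.106) and with normexp (adjusted p = 0.0580). Among the other 6 measured mast cell markers 0 were called, and Tpsab1, a mast cell tryptase, differed by 0.39. Neutrophil markers had a median of -0.31 over 6 genes and B cell markers of -0.11 over 5 genes, with 0 called in each list. Only 2 of these 6 and 1 of these 5 genes were members, so both medians rest mostly on dim probes. The 1 member among the B cell markers, Cd22, differed by -0.58 (adjusted p = 0.141 in limma).

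Outside the lists, 4 genes chosen after their values were seen, because they were called lower on some probe, are given as values with no statement on a group. Card9, an adaptor of innate immune receptors, fell by 0.82 on the log2 scale (adjusted p = 0.0280). For the other 3 genes the called probe was not the brightest. Ptprc, the leukocyte antigen CD45, had a called probe at -1.67 (adjusted p = 0.00818) and a brightest probe at -0.83 (adjusted p = 0.214). Cd7, a lymphocyte antigen, had them at -1.69 (adjusted p = 0.0493) and -0.57 (adjusted p = 0.408), and Nfkb2, a subunit of NF-kappaB, at -1.06 (adjusted p = 0.0197) and -0.45 (adjusted p = 0.157).

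The study picked a list of genes of the MAPK cascades, which carry stress and growth signals to the nucleus, on these same rats, so the direction of that list is not independent evidence, and a shortened copy of 12 genes is used here. Of these 10 were measured, of which 1 (Taok2) fell on its brightest probe, and 9 of 10 differences were below 0, with a median of -0.59. Taok2, a kinase that acts upstream of p38 and JNK, had 8.85, 9.20 and 8.93 in TBI rats and 8.27, 8.44, 8.01 and 8.39 in MASM + TBI rats (difference -0.72, SE 0.14, adjusted p = 0.0495), with controls at 8.08 to 8.45. Its call was lost with any rat but TBI rat 1 left out (adjusted p = 0.0593 to 0.137) and with only the irradiated groups in the model (adjusted p = 0.10), and with normexp its difference (-0.51) was below a 1.5-fold change. The probes of Cacna1e, a calcium channel, disagree, since the brightest differed by -0.41 (adjusted p = 0.551) and a dimmer one fell by 1.0 on the log2 scale (adjusted p = 0.0355), from 5.45, 5.25 and 5.32 in TBI rats to 4.04, 4.34, 4.74 and 4.27 in MASM + TBI rats. At the unadjusted threshold 1 gene of the list (10%) was higher and 4 (40%) were lower, against 1.73% and 6.09% of all genes, and Cacna1s, another calcium channel (-1.85, adjusted p = 0.144), Pla2g2a, a secreted phospholipase (-1.40, adjusted p = 0.119), and Gadd45b, a stress sensor (-1.10, adjusted p = 0.223), were among the lower genes. Pla2g2a had 8.75, 8.10 and 7.95 in TBI rats and 6.95, 6.25, 7.18 and 7.11 in MASM + TBI rats without overlap, with controls at 5.09 to 6.48. Cacna1s was well above background on no MASM + TBI array, so that it is at least 1.70-fold lower.

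Nr4a1, an immediate-early nuclear receptor in the MAPK list, had 11.11, 12.60 and 12.38 in TBI rats and 11.66, 11.03, 11.90 and 5.97 in MASM + TBI rats. MASM + TBI rat 4 lay below all control rats (7.33 to 9.33), and the other 3 overlapped the TBI rats, so the mean difference of -1.89 (SE 1.37, adjusted p = 0.530) rests on this rat. The same rat was low for Chac1, which degrades glutathione under stress (6.27 in rat 4, and 11.34 and 11.70 in rats 1 and 3, against 10.51, 11.13 and 11.89 in TBI rats), and for G6pc1, which releases glucose from glucose 6-phosphate (15.43, 15.12, 15.41 and 13.53 against 15.87, 15.80 and 16.22). For G6pc1 all 4 MASM + TBI rats lay below the TBI rats (difference -1.09, adjusted p = 0.245).

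All but 1 of 16 genes of cholesterol synthesis and LDL uptake had differences above 0, with a median of 0.38, but 0 were called or passed the unadjusted threshold. Sqle, an oxygenase of sterol synthesis, had 10.27, 11.68 and 11.85 in TBI rats and 12.49, 11.28, 12.67 and 11.72 in MASM + TBI rats (difference 0.77, adjusted p = 0.436), with overlap, and Insig1, which holds the pathway back, had the difference below 0 (-0.54). The median was 0.16 when TBI rat 1 was left out and 0.20 when MASM + TBI rat 3 was. Among 14 hepatocyte markers 0 were called, and Nr1i3, a receptor for foreign compounds, had 7.96, 7.90 and 7.97 in TBI rats and 8.65, 8.51, 8.58 and 8.78 in MASM + TBI rats (difference 0.69, adjusted p = 0.133) without overlap.

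The lists of the radiation response itself held 0 called genes, near the share over all genes, of which 0.261% were called higher and 0.603% lower. At the unadjusted threshold 1.73% of all genes were higher and 6.09% lower. Of 17 p53 targets 0 were called or passed the unadjusted threshold, with differences from -0.57 (Cdkn1a, adjusted p = 0.304) to 0.41 (Mdm2) and a median of -0.13. The mean log2 signal over the list was 9.84 to 10.11 in TBI rats, 9.78 to 10.06 in MASM + TBI rats and 8.26 to 8.51 in control rats. Of 19 cell cycle genes 0 were called, and Bub1, a checkpoint kinase of mitosis, was higher at the unadjusted threshold, with 5.06, 4.95 and 5.13 in TBI rats and 5.74, 5.61, 5.83 and 5.47 in MASM + TBI rats (difference 0.62, adjusted p = 0.0712), below the control level of 6.77 to 7.27. Interferon-stimulated genes, of which 0 of 12 were called, had a mean of 8.80 to 9.05 in TBI rats and 8.89 to 9.17 in MASM + TBI rats, below the control range of 10.36 to 11.45.

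Housekeeping lists had medians near that of all genes, at -0.00 for 21 ribosomal proteins, -0.01 for 17 proteasome subunits and 0.10 for 18 subunits of oxidative phosphorylation, with 0 called in each. The lists of urea cycle, bile acid synthesis, cytochrome P450 enzymes, fatty acid synthesis, fat oxidation, gluconeogenesis, growth hormone axis, uptake carriers, acute phase proteins, iron handling, heat shock proteins, endoplasmic reticulum chaperones, integrated stress response, immediate-early genes, pericentral genes, and markers of bile duct, sinusoidal endothelium, stellate cells and erythroid cells also held 0 called genes, with medians from -0.38 (immediate-early genes) to 0.17 (bile acid synthesis).

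**Figure D5:**
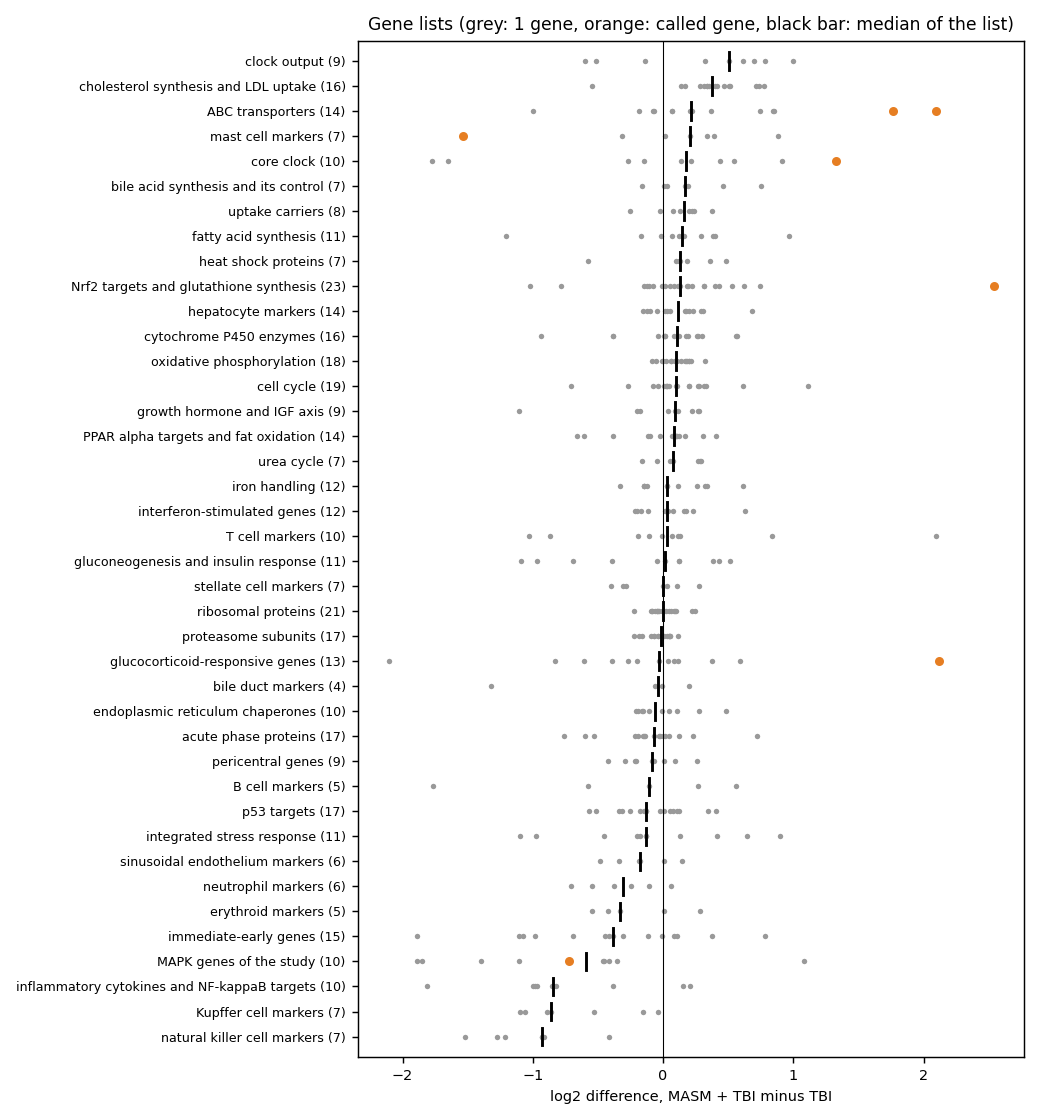
Log2 difference between MASM + TBI and TBI rats (horizontal axis) of each measured gene of 40 lists, with the number of measured genes in brackets, called genes in orange and the list's median as a black bar. The lowest medians are those of natural killer cells (-0.93), Kupffer cells (-0.86) and inflammatory genes (-0.84), and the highest that of clock output (0.51).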

How the data were processed

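The arrays were 4 × 44 K rat arrays with 1 colour. Per the file headers the authors deposited intensities from Feature Extraction 10.7.3.1, linear, background-subtracted and not normalized between arrays, and the deposited value table held the same intensities. From these, outlier and control spots (1639 of 45018 per array) were left out, log2 was taken, arrays were quantile normalized, and spots of a probe were averaged. A value was missing for 67 of 41012 probes on at least 1 array. No spot was saturated (0). The number of rats, 1 array each, limits the precision. All 10 arrays entered 1 limma 3.58.1 fit (R 4.3.3) of group means (3 groups, prior df 1.43), and p-values measure the spread between these rats. It was tested on simulated data. Symbols came from RefSeq accessions (16968 probes), and a gene is represented by its brightest probe.

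Named genes were first the 12 largest called rises and falls among genes well above background on all 7 irradiated arrays. To these came the 1 rise and 5 falls with the largest bounds. Both rules took only genes whose irradiated groups did not overlap. Called or most changed list members were named too, and other members are named to complete a sentence. Members and lists were chosen with earlier results of these data known. Figures were drawn with matplotlib 3.10.9. Alternatives were other scalings, background correction, filters, models, blocks and rats left out. Some list members are not reported here.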

Additional observations from a re-analysis of the deposited data

Results flagged for a closer look

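Of 69 named genes, 9 had 1 MASM + TBI rat whose distance to the nearest of the other 3, as a share of the group's range, exceeded Dixon's 95% critical value, where chance gives about 1 gene in 20, and the genes are not independent. The share of the range was 0.854 for Nr4a1, 0.871 for Chac1 and 0.838 for G6pc1, all low in rat 4, and 0.837 for Zbtb16, high in rat 4. MASM + TBI rat 3 lay apart for Slc31a1 (0.837, low), Rundc3b (0.952, high) and Cldn16 (0.928, high), rat 2 for Ugt2b1 (0.877, high) and rat 1 for Psmd4, a proteasome subunit (0.854, low). Groups of 3 rats were not tested in this way.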

How the results depend on the processing

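The 400 called members became 973 with scaling to the 75th percentile, 1134 with median scaling (chosen after seeing the data), 168 with 2 groups in the model, 166 with 2 groups in the model and quantile normalization over their 7 arrays, 95 with normexp, 2 by the methods' t-test and 905 with the slide as a random block, and ranged from 158 to 784 with 1 rat left out. In the fit with the random slide block the correlation within slides was -0.13. That fit cannot separate slide from treatment, since all TBI arrays shared slide 2, so its larger count says nothing on the part of the slide. The count of 1889 at the unadjusted threshold became 383 with normexp and 1001 by the methods' t-test, and ranged from 1523 to 2493 with 1 rat left out. The share of rises, 59.5%, became 35.4% with the 75th percentile, 85.3% with normexp, 72.0% when only probes well above background on all 7 irradiated arrays were tested, 0% by the methods' t-test and 47.7% with the random slide block, and ranged from 41% to 65.4% with 1 rat left out. The median over all probes was 0.04, and 0.08 and 0.20 with the 75th percentile and median scaling. With the replicate number as a block 17 members were called, of which 29.4% rose. Deviations of rats with the same number correlated at -0.13 to 0.17, and those of rats with different numbers at -0.13 to 0.15. Whether rats with the same number shared a batch was not tested. Of 34 called named genes 19 lost their call with 2 groups in the model, 27 with normexp (9 by the adjusted p and 18 by the fold change alone), 31 with the replicate block and 34 by the methods' t-test. Of 35 named genes that were not called, 4 became called with the 75th percentile (Npas2, Usp2, Nr1i3 and Cyp2b1), 5 with median scaling (these with Bub1), 3 with the random slide block (Npas2, Nr1i3 and Bub1), Nr1i3 with 2 groups in the model, and Npas2 with normexp and with each filter on dim probes. Clock output, with 0 calls, had 2 with the 75th percentile and 3 with median scaling, and T cell markers, with 0 calls, had 2 with each. Of the named genes 4, none of them called, changed sign: Chac1 with the replicate block (0.17) and S100a9 with median scaling (0.0172), and with 1 rat left out Chac1 (-1.64 to 0.17), Lcn2 (-1.62 to 0.62), Spp1 (-0.19 to 0.68) and S100a9 (-0.46 to 0.22). The causes were not tested.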
